A study of Rattus norvegicus with 18 samples.

Results

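The proteasome is the cell's main protease for proteins tagged with ubiquitin. Its barrel-shaped core particle is built from alpha subunits (Psma genes), which form the outer rings and the gate, and beta subunits (Psmb genes), which form the inner rings and carry the cutting sites. A regulatory particle caps the core: its ATPase ring (Psmc genes) unfolds the substrate and its other subunits (Psmd genes) bind ubiquitin chains and remove them. In neurons the system clears damaged and short-lived proteins and takes part in the turnover of synaptic proteins, and subunit genes are known to be transcribed together under the factors Nfe2l1 and Nfe2l2.

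The genes described here are those whose rat symbol begins with Psma to Psmg and a number, leaving out Psmb8 and Psmb9, the subunits induced by interferon. The rule found 45 genes, on 47 probes, of 16665 genes that the array names. It kept Psmb10, which is also an induced catalytic subunit, and 4 symbols that only share the prefix or are gene copies: Psmc3ip, Psme3ip1, Psmb6l1 and Psmg4l1. Only probes called well above background by the scanner software in 5 or more of the 6 rats of some group were tested, which left 43 of the 45 genes, and 13051 genes in all. Psma8, the alpha subunit of the testis, was well above background on 7 of the 18 arrays. Psmg4l1 was above background on 0 arrays. Psmb3, Psmb11, Psmd11, Psmg1, Psmg3 and 4 further copies of such genes matched no probe and were not analysed here. The core particle is described by 14 genes (7 alpha and 7 beta) and the regulatory particle by 19 (6 ATPases and 13 others, among them the assembly chaperones Psmd5, Psmd9 and Psmd10). The remaining tested genes are the activators Psme1 to Psme4, the inhibitor Psmf1, the assembly chaperones Psmg2 and Psmg4, and 3 of the 4 prefix symbols.

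The hypothalamus of 18 male Wistar rats was profiled on 1-colour arrays, with 1 array per rat and 6 rats per group. All rats were 5 weeks old at the start and 9 weeks old at collection. Control rats were neither restrained nor given a wheel. In the stress group, daily restraint lasted 1 to 1.5 h and was repeated 5 days per week over 3 weeks. Stress_exercise rats had the same restraint and also a running wheel for 4 weeks, of which 1 week came before the restraint. All rats were killed under ether followed by decapitation and fed freely until then. The running was voluntary, and no group had a wheel without restraint, so wheel and restraint cannot be told apart between stress_exercise and control rats. A level here is the log2 processed signal minus the 75th percentile of that array, so 0 is the 75th percentile; levels are not comparable between probes.

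Groups and slides overlapped only in part. Slides 1 and 2 held the control arrays, slide 3 held stress rats 1 to 4, slide 4 held stress rats 5 and 6 and stress_exercise rats 1 and 2, and slide 5 held stress_exercise rats 3 to 6. No slide held both control and stress rats, and no control rat lay on slides 4 and 5. The arrays were scanned on 2 days: slides 2 and 4 on day 1, and slides 1, 3 and 5 on day 2. Between 63.6% and 77.8% of probes per array were well above background, the 75th percentile intensity lay between 423 and 528, and no spot was saturated. All 12 hypothalamic neuropeptide markers (among them Oxt, Avp, Crh and Pomc) were above background on every array. All 6 striatal and all 4 tested thalamic markers were also above background on every array. So were 3 of 5 choroid plexus markers and 1 of 2 tested pituitary markers. The 6 striatal markers had a mean level of -0.26 in control rats (range -0.39 to -0.15) and -0.032 in stress rats (-0.26 to 0.34). In stress_exercise rats it was 0.21 (-0.20 to 0.65). Of the 6, 4 were higher in stress_exercise than in control rats, against 18.1% of all genes. The 4 tested thalamic markers averaged 2.09, 1.64 and 2.09 in the same order, with ranges of 1.17 to 2.64, 0.83 to 2.15 and 1.39 to 2.81, and 0 of 4 passed between stress_exercise and control rats. The 5 oligodendrocyte markers averaged 5.80, 5.85 and 5.98 in the same order, with ranges of 5.68 to 5.88, 5.75 to 5.96 and 5.92 to 6.08. Of the 5, 2 were higher in stress_exercise than in control rats, against the same 18.1% of all genes. Whether hypothalamic cells also express these genes, and the part of these shifts in the results below, was not tested. The 12 hypothalamic markers averaged 3.08, 3.25 and 3.20 in control, stress and stress_exercise rats. Between stress_exercise and control rats 2 of these 12 passed, 1 of them higher. Of 5 astrocyte markers 2 passed, 1 of them higher, and of 5 endothelial markers 0 passed. In tissue of mixed cells, fewer cells of a type and less RNA per cell cannot be told apart.

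Promoter sequence is shown only for the members with a match to the antioxidant response element, whatever their results. Psmd10, Psma2, Psmc1, Psmc4 and Psmd4, which are described below, had no match and are not shown. The antioxidant response element is the sequence that Nfe2l1 and Nfe2l2 bind together with small Maf proteins; its core was searched as TGACNNNGC, on both strands, in the 250 bases before each gene's start, from RefSeq promoters of rat build GRCr8. Of the 45 genes, 41 have a promoter in that table (Psma7, Psmd6, Psmd12 and Psmd14 do not). The core stood in 7 of the 41 (17.1%), against 10.1% of 33469 promoters of the same length. Each line gives the bases around the match, 5′ to 3′ on the gene's strand, with the matched bases in capitals; in Psma3, Psmd9 (first) and Psme4 the match lies on the opposite strand and is read as its reverse complement.
Psmb5, chr15:32047395-32047475, minus strand: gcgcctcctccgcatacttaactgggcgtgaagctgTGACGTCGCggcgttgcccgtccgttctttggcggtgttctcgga
Psmb6, chr10:55737828-55737887, plus strand: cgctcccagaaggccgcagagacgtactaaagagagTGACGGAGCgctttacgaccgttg
Psmd9 (first), chr12:39018344-39018424, minus strand: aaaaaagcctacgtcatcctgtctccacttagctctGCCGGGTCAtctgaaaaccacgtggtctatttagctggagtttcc
Psmd9 (second), chr12:39018297-39018377, minus strand: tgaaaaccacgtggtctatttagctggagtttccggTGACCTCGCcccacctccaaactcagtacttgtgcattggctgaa
Psme4, chr14:108706552-108706632, plus strand: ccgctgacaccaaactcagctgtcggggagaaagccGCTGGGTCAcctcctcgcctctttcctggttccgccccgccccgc
Psmb2, chr5:144254954-144255034, plus strand: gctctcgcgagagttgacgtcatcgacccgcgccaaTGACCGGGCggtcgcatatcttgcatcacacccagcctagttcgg
Psma3, chr6:95219701-95219748, plus strand: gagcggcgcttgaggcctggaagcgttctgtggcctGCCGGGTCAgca
Psmd1, chr9:94157770-94157850, plus strand: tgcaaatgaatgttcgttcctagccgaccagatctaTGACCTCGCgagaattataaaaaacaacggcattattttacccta

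The matches began 60 bases before the start of Psmb5, 24 before Psmb6, 124 and 77 before Psmd9, 55 before Psme4, 68 before Psmb2, 12 before Psma3 and 165 before Psmd1. The stricter form TGACTCAGC was in 0 of the 41 and in 0.376% of all promoters. The CCAAT box, searched as CCAAT, was in 19 of 41 (34% of all promoters), the ETS core CGGAAG in 18 (13.9%), the GC box GGGCGG in 27 (30.5%) and the cyclic AMP response element TGACGTCA in 1, Psmb2 (1.59%). These motifs can overlap one another, and 3 longer motifs that were also searched are not shown. A match describes the letters of the window and says nothing of binding in these rats.

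In restrained rats without a wheel, no gene of the proteasome passed the test against control rats. Of the 43 genes 0 were called (limma with Benjamini-Hochberg adjustment over all tested probes, adjusted p under 0.05), and the share called among all 13051 genes was also 0%. At an unadjusted p under 0.05 there were 4 genes, Psma1, Psmb5 and Psmd6 higher and Psmd10 lower, and 1596 genes among all. The median difference was 0.059 log2 over the 43 genes and 0.017 over all genes. Core genes spanned -0.052 to 0.13 and regulatory particle genes -0.15 to 0.10.

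Psma1, an alpha ring subunit, came nearest to a call. Its level was 2.83 to 2.95 in control rats (median 2.88) and 2.89 to 3.02 in stress rats (median 2.98). The ranges overlapped, and the difference was 0.095 (SE 0.032, adjusted p = 0.309 in limma), with 6 of 6 stress rats above the control mean. With the slide set (slides 1 to 3 against slides 4 and 5) in the fit its difference was 0.086 and the adjusted p 0.46. Psmd6, a regulatory particle subunit, differed by 0.089 (adjusted p = 0.386) and Psmd10 by -0.15 (adjusted p = 0.372). Psma2 and Psmc3ip differed by -0.051 and -0.073.

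The 3 genes of the constitutive cutting sites are Psmb5 (chymotrypsin-like), Psmb6 (caspase-like) and Psmb7 (trypsin-like). Psmb5 lay between 4.37 and 4.47 in the 6 control rats (median 4.41), at 4.46, 4.46, 4.45 and 4.45 in stress rats 1 to 4, at 4.67 and 4.78 in stress rats 5 and 6, and between 4.60 and 4.66 in the 6 stress_exercise rats (median 4.62). The 2 stress rats that shared slide 4 with stress_exercise rats were thus above every stress rat of slide 3, every control rat and every stress_exercise rat. Over all 6 stress rats the difference from control was 0.13 (95% confidence interval 0.018 to 0.24, adjusted p = 0.372 in limma).

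Psmb6 showed the same order. Control rats lay between 4.14 and 4.36 (median 4.28), stress rats 1 to 4 at 4.27, 4.30, 4.12 and 4.25, stress rats 5 and 6 at 4.59 and 4.64, and stress_exercise rats between 4.50 and 4.61 (median 4.53). The stress rats of slide 3 fell within or just below the control range, and those of slide 4 fell near or above the top of the exercised range. Psmb6l1, a copy of Psmb6 with a probe of its own, averaged 4.64, 4.69 and 4.68 in control, stress and stress_exercise rats; whether the probes tell the copies apart was not tested. Psmb7 lay between 2.87 and 3.03 in control rats (median 2.93), at 2.98, 2.87, 3.03 and 2.98 in stress rats 1 to 4, at 3.10 and 3.14 in stress rats 5 and 6, and between 2.98 and 3.18 in stress_exercise rats (median 3.08). Here the groups overlapped.

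**Figure D1:**
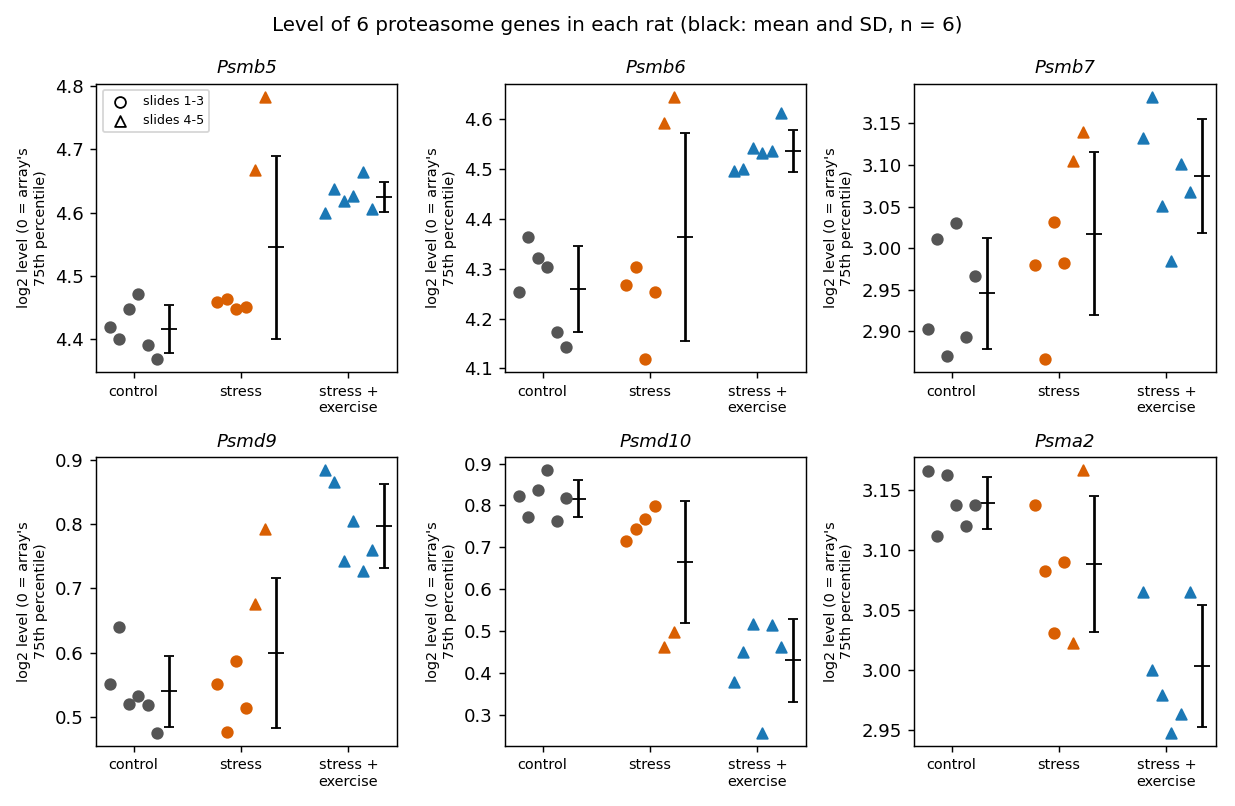
Level of Psmb5, Psmb6, Psmb7, Psmd9, Psmd10 and Psma2 in each rat (vertical axis, log2, 0 is the array's 75th percentile) by group (horizontal axis); circles are arrays of slides 1 to 3, triangles those of slides 4 and 5, and black bars the mean and SD of 6 rats. In Psmb5, Psmb6, Psmd9 and Psmd10 the 2 stress rats on slide 4 sit apart from the other 4 stress rats and on the side of the stress_exercise rats, as Psmd10 at 0.46 and 0.50 shows against 0.72 to 0.80.

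Between stress_exercise and control rats 14 of the 43 genes passed. Of these, 11 were higher (25.6% of the members, against 18.1% of all genes) and 3 lower (6.98%, against 9.84%). The share of members that passed was thus not far from the background in either direction. Of the core genes 5 of 14 passed, with Psma1, Psmb5, Psmb6 and Psmb7 higher and Psma2 lower. Of the regulatory particle genes 7 of 19 passed, with Psmc1, Psmc3, Psmc4, Psmd4, Psmd9 and Psmd12 higher and Psmd10 lower. The activator Psme2 was higher and Psmc3ip lower. The median difference was 0.045 over the core, 0.11 over the regulatory particle, 0.073 over all 43 genes and 0.051 over all genes tested. The split of 11 higher and 3 lower was 18 and 1 with the array median as the scale, 8 and 5 with quantile normalization and 0 and 3 with no scaling. Calls among all genes numbered 4581, 3878 and 1691 in the same order, against 3649 in the main fit.

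No call stood once the slide set was in the fit. Members called numbered 0 of 43 with it (lowest adjusted p 0.472 in limma), and 0.00766% of all genes were called in either direction. At an unadjusted p under 0.05 there were 2 members, Psma2 and Psma3, both lower, and 1243 of all 13051 genes. No slide set held both control and stress_exercise rats, so this fit takes the slide difference from the 6 stress rats alone, and its intervals are wide. Slide set and group cannot be told apart for this comparison without that step. The fit also assumes that all slides of a set share the same shift, which was not tested. In several genes described below, the exercised rats, all of the same slide set, separated by slide.

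In the core, Psmb6 had the largest difference at 0.28 (SE 0.076, a fold of 1.21, adjusted p = 0.0125), with every stress_exercise rat above every control rat. Psmb5 differed by 0.21 (SE 0.053, a fold of 1.16, adjusted p = 0.00801), also without overlap. Psmb7 differed by 0.14 (SE 0.049, adjusted p = 0.0409), with overlap. With the slide set in the fit the 3 differences were -0.11 (95% confidence interval -0.27 to 0.058), -0.062 (-0.17 to 0.045) and -0.017 (-0.17 to 0.14). Their direction thus turned, given the shared shift of slides that the fit assumes.

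Psma2, a subunit of the alpha ring, went the other way. It lay between 3.11 and 3.17 in control rats (median 3.14), at 3.14, 3.08, 3.03 and 3.09 in stress rats 1 to 4, at 3.02 and 3.17 in stress rats 5 and 6, and between 2.95 and 3.07 in stress_exercise rats (median 2.99). The exercised rats were all below the control rats, and the 2 stress rats of slide 4 lay at the bottom and the top of the stress group. The difference from control was -0.14 (SE 0.034, adjusted p = 0.00739), and with the slide set it was -0.15 (95% confidence interval -0.27 to -0.019, adjusted p = 0.472). Its size was therefore about the same in both fits, and only the interval widened. Psma1 was 2.93 to 3.02 in stress_exercise rats (median 2.97) and differed from control by 0.096 (adjusted p = 0.034), and by 0.067 with the slide set.

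The other core genes did not pass. Psma3, Psma4, Psma5, Psma6 and Psma7 differed by -0.083, -0.041, 0.11, 0.059 and 0.073, and Psmb1, Psmb2 and Psmb4 by -0.094, 0.030 and -0.042. Psmb10, the induced counterpart of Psmb7, had a level of 3.03 to 3.43 in control rats (median 3.25), 3.11 to 3.26 in stress rats (median 3.19) and 3.00 to 3.22 in stress_exercise rats (median 3.11). Its difference of -0.13 did not pass (adjusted p = 0.124), and the control rats alone covered most of the range.

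In the regulatory particle the largest difference of any member belonged to Psmd10, known as gankyrin, a chaperone that helps assemble the ATPase ring. It lay between 0.76 and 0.88 in control rats (median 0.82), at 0.72, 0.74, 0.77 and 0.80 in stress rats 1 to 4, at 0.46 and 0.50 in stress rats 5 and 6, and between 0.26 and 0.52 in stress_exercise rats (median 0.46). Stress rats split by slide, and those of slide 4 fell within the exercised range. Stress_exercise minus control was -0.39 (SE 0.062, a fold of 0.765, adjusted p = 0.00073), and -0.11 with the slide set (95% confidence interval -0.27 to 0.050).

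Psmd9, another assembly chaperone of the ATPase ring, moved the opposite way. Control rats lay between 0.48 and 0.64 (median 0.53), stress rats 1 to 4 at 0.55, 0.48, 0.59 and 0.51, stress rats 5 and 6 at 0.68 and 0.79, and stress_exercise rats between 0.73 and 0.88 (median 0.78). Exercised and control rats did not overlap, with a difference of 0.26 (SE 0.051, adjusted p = 0.00187), and 0.055 with the slide set. Psmd5, the third such chaperone, differed by 0.077 and did not pass.

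In the ATPase ring, Psmc4 lay between 1.34 and 1.39 in control rats (median 1.39), at 1.35, 1.33, 1.54 and 1.37 in stress rats 1 to 4, at 1.56 and 1.56 in stress rats 5 and 6, and between 1.53 and 1.65 in stress_exercise rats (median 1.57). Stress rat 3, on slide 3, was at the exercised level too. The difference from control was 0.20 (SE 0.046, adjusted p = 0.00457), and 0.038 with the slide set. Psmc1 differed by 0.18 (SE 0.044, adjusted p = 0.00659), and -0.0055 with the slide set. Its second probe differed by 0.15 (adjusted p = 0.00952). Psmc3 differed by 0.15 (adjusted p = 0.0311), and by 0.12 with the slide set. Psmc2, Psmc5 and Psmc6 differed by -0.028, 0.0044 and -0.084 and did not pass.

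Among the ubiquitin receptors and scaffold subunits, Psmd4, a receptor for ubiquitin chains, differed by 0.18 (SE 0.048, adjusted p = 0.0112), and by -0.021 with the slide set. It lay between 3.67 and 3.86 in control rats (median 3.80), at 3.80, 3.82, 3.81 and 3.78 in stress rats 1 to 4, at 3.99 and 4.01 in stress rats 5 and 6, and between 3.93 and 4.02 in stress_exercise rats (median 3.96). Psmd12, a lid subunit that falls outside the rule for genes given in full, differed by 0.13 (adjusted p = 0.0435). The scaffold genes Psmd1 and Psmd2 differed by 0.12 and -0.11 and did not pass. Psmd14, the deubiquitinase of the lid, differed by 0.11 and did not pass either. The differences of Psmd3, Psmd6, Psmd7, Psmd8 and Psmd13 lay between -0.038 and 0.13 with no call.

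Activators replace the regulatory particle at the ends of the core. Psme1 and Psme2, which form 1 ring and are known as interferon-responsive, were at 3.49 and 3.97 in control rats, 3.56 and 4.04 in stress rats and 3.55 and 4.08 in stress_exercise rats (means; SD 0.028 to 0.083). Of these only Psme2 passed against control (0.11, SE 0.036, adjusted p = 0.0311), and its slide set value was 0.092. Psme3, the nuclear activator, lay between 0.011 and 0.23 in control rats (median 0.14), at 0.087, 0.014, 0.18 and -0.20 in stress rats 1 to 4, at 0.30 and 0.27 in stress rats 5 and 6, and between 0.24 and 0.38 in stress_exercise rats (median 0.34). The exercised rats did not overlap the controls, and the difference of 0.19 stood just short of a call (adjusted p = 0.0607). It was -0.077 with the slide set, so its sign turned. Psme4 lay between 1.28 and 1.43, at 1.23, 1.21, 1.15 and 1.22, at 1.45 and 1.49, and between 1.37 and 1.57 (medians 1.36 in control and 1.51 in stress_exercise rats) in the same order. Its difference from control was 0.14 (adjusted p = 0.081), and with the slide set its sign turned too, to -0.13.

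Psmf1, an inhibitor of the core, differed by -0.072 between stress_exercise and control rats (adjusted p = 0.12), with medians of 2.12, 2.11 and 2.06 over the 3 groups. The core assembly chaperones Psmg2 and Psmg4 differed by -0.040 and 0.055. Psmg4 had a second, dim probe, which did not pass in any comparison. Psmc3ip, a recombination factor that carries the prefix only because its product binds Psmc3, lay between -0.63 and -0.41 in control rats (median -0.51) and between -0.74 and -0.60 in stress_exercise rats (median -0.68). Its difference was -0.17 (adjusted p = 0.0293), and -0.18 with the slide set. Psme3ip1 and Psmb6l1 differed by 0.098 and 0.038.

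Stress_exercise and control rats did not overlap in 10 of the 43 genes, 8 higher and 2 lower, against 18.6% of all genes. The 8 were Psma7, Psmb5, Psmb6, Psmc1, Psmc4, Psmd4, Psmd9 and Psme3, and the 2 were Psma2 and Psmd10.

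**Figure D2:**
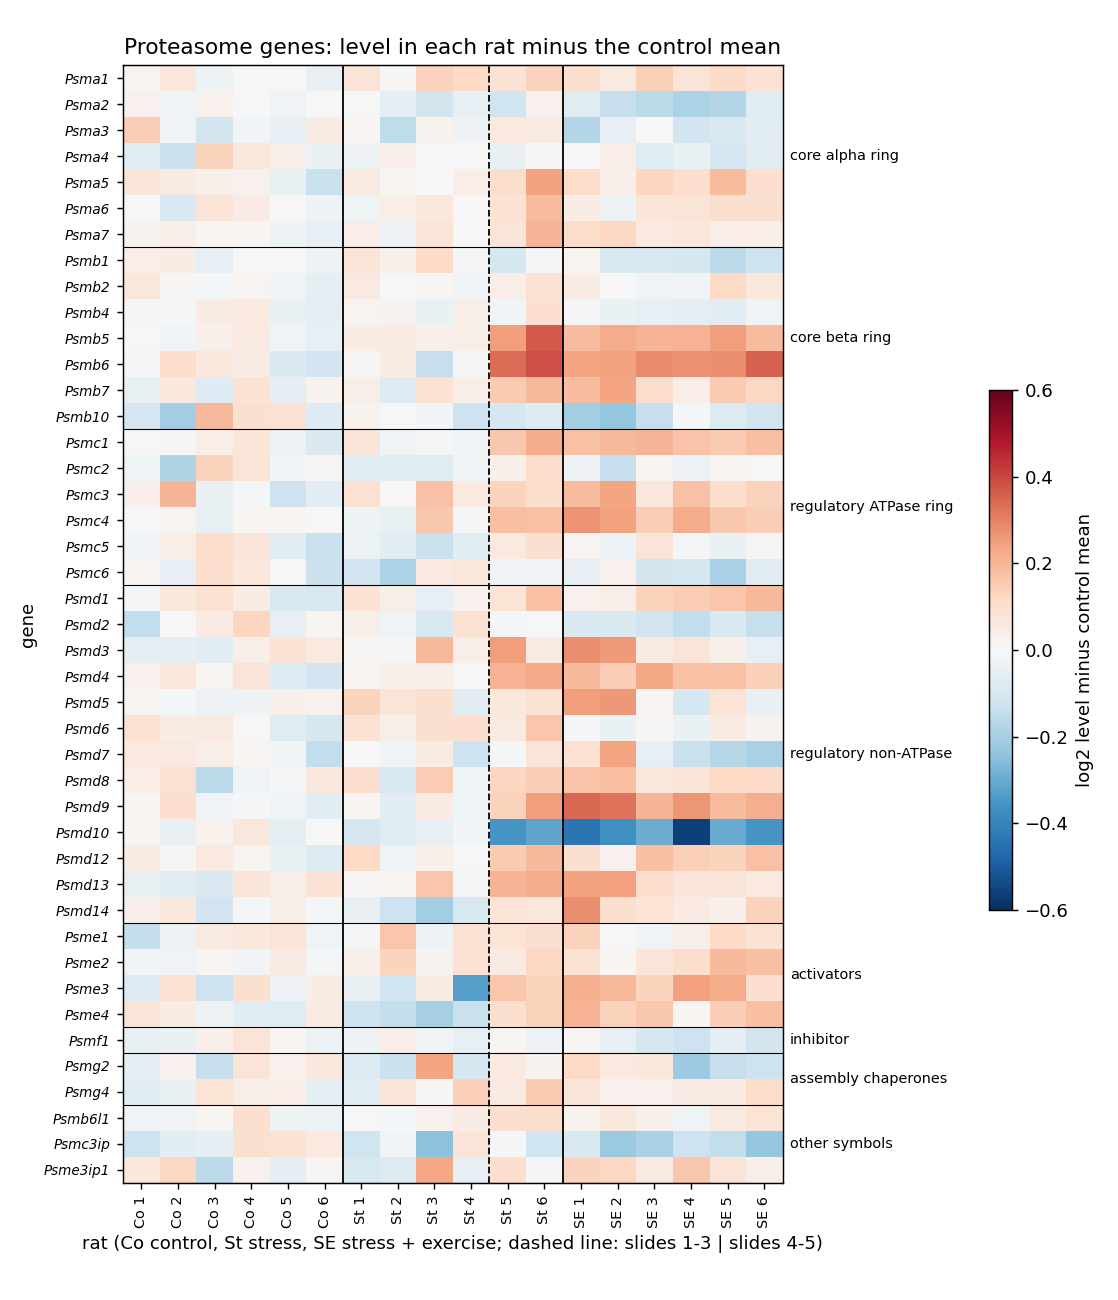
Level of each of the 43 genes (rows, by class) in each of the 18 rats (columns) minus the mean of the control rats, on a log2 scale from blue (lower) to red (higher); solid lines part the groups and the dashed line parts stress rats of slide 3 from those of slide 4. Psmb5, Psmb6 and Psmd10 change colour at the dashed line, inside the stress group, and not at the line between stress and stress_exercise.

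The stress rats allow a look at the slides, since stress rats 1 to 4 and 5 to 6 had the same treatment. Slide 3 was scanned on day 2 and slide 4 on day 1, and each held different rats. Slide, scan day and the rats themselves therefore cannot be told apart here. Between slide 4 and slide 3, 8 of the 43 genes passed in limma: 7 were higher on slide 4 (16.3%, against 9.66% of all genes) and 1 was lower (2.33%, against 6.8%). The 7 were Psmb5 (0.27, SE 0.042, adjusted p = 0.000227), Psmb6 (0.38, SE 0.064, adjusted p = 0.00053), Psmc1 (0.19), Psmd4 (0.20), Psmd9 (0.20), Psme3 (0.26) and Psme4 (0.27). The gene that was lower was Psmd10 (-0.28, SE 0.063, adjusted p = 0.00584). In this comparison 37 of the 43 members had a difference above 0 (86%, against 63.9% of all genes). The median was 0.088 over the members, against 0.060 over all genes.

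No rat stands in both this comparison and that of stress_exercise with control rats. Of the 14 members that passed between stress_exercise and control rats, 12 had the same sign between slide 4 and slide 3 of the stress rats, and 6 passed there too. Over all genes, 3361 of 3649 had the same sign (92.1%) and 1357 passed there too, which is 37.2% of the genes called between the groups and 63.2% of the 2148 called between the slides. For the members these shares were 42.9% of 14 and 75% of 8. The median of the 14 differences was 0.17 between the groups, and 0.16 between the slides when taken in the same direction; over the 3649 genes it was 0.24 and 0.17. Psma2 and Psmc3ip were the 2 without the same sign, at 0.0090 and 0.011 between the slides. Psma1, Psmc3 and Psme2 differed by 0.029, 0.035 and 0.018 between the slides, well under their differences between the groups.

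**Figure D3:**
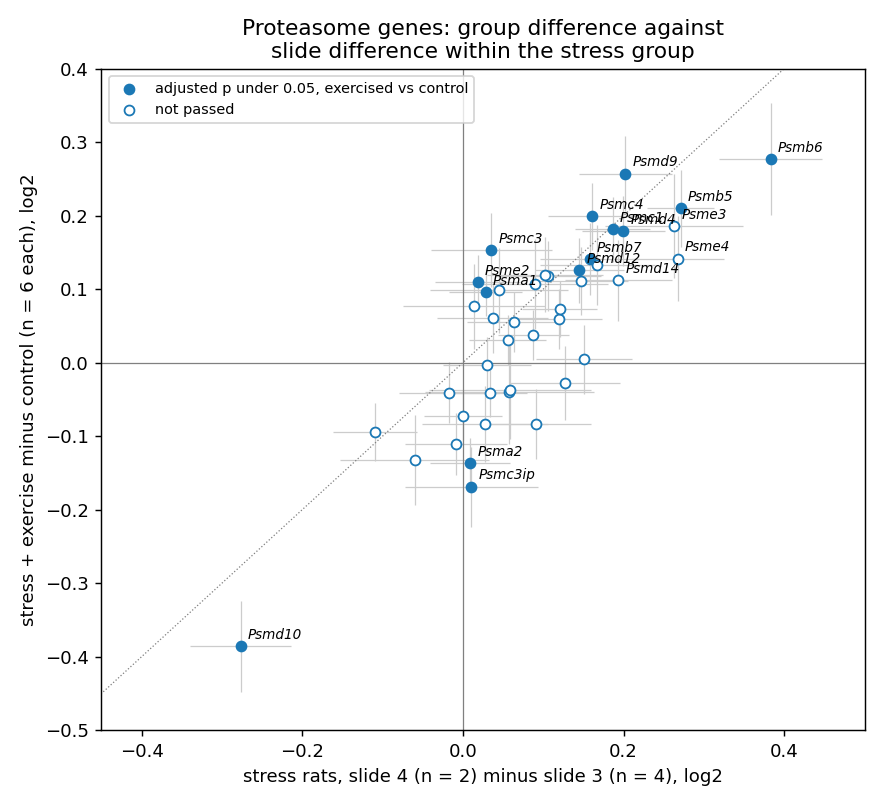
Difference between stress_exercise and control rats (vertical axis, log2, 6 rats each) against the difference between stress rats on slide 4 and slide 3 (horizontal axis, log2, 2 and 4 rats) for the 43 genes; grey bars are standard errors, filled points passed between the groups, and the dotted line marks equal values. Psmb5, Psmb6, Psmd9 and Psmd10 lie far out along the dotted line on both axes, while Psma2 and Psmc3ip lie near 0 on the horizontal axis.

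Against stress rats, 2 of the 43 genes passed in stress_exercise rats: Psmd9 was higher (0.20, SE 0.051, adjusted p = 0.0439, 6 of 6 rats above the stress mean) and Psmd10 lower (-0.23, SE 0.062, adjusted p = 0.0458, 6 of 6 below). Among all genes 1.6% were higher and 1.67% lower. At an unadjusted p under 0.05 there were 12 of 43 members and 3289 of all 13051 genes. Of the 14 core genes 0 passed the adjusted test, with 3 at an unadjusted p under 0.05. Psmb5, Psmb6, Psmb7 and Psmb10 differed by 0.080, 0.17, 0.069 and -0.080, with adjusted p-values of 0.367, 0.171, 0.402 and 0.443. Psme1, Psme2, Psme3, Psme4 and Psmf1 differed by -0.0049, 0.036, 0.21, 0.20 and -0.058, and the lowest adjusted p among them was 0.0577, for Psme4.

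These calls changed with the rats that were used, in both groups. Leaving out stress rat 5 gave 7 calls and leaving out stress rat 6 gave 9, against 1899 and 1756 of all 13051 genes. Leaving out any other stress rat or any stress_exercise rat gave 0 members and at most 5 of all genes. Without both rats of slide 4 the count was 11, against 3457 of all genes. The fit with the slide set compares the exercised rats with stress rats 5 and 6. In it 0 of 43 members passed (lowest adjusted p 0.693 in limma), and 0.00766% of all genes were called. At an unadjusted p under 0.05 there were 3 members and 883 of all 13051 genes. In this fit Psmd9 differed by 0.063 and Psmd10 by -0.050.

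Within slides 4 and 5 the core genes of the exercised rats lay below those of the 2 stress rats. All 14 core genes had a lower mean in the 6 exercised rats than in stress rats 5 and 6 (differences of -0.14 to -0.019), as did 14 of the 19 regulatory particle genes and 34 of all 43 members; over all genes 48.2% had a difference above 0. None passed. The 2 rats differed in this: the exercised mean was below stress rat 6 in 14 of 14 core genes (median difference -0.12) and below stress rat 5 in 10 of 14 (median -0.019). With the slide set in the fit of stress against control rats, 0 of 43 genes passed (0% of all genes). At an unadjusted p under 0.05 there were 3 members, Psma1 higher and Psmd14 and Psme4 lower, and 1247 of all 13051 genes. That fit compares the control rats with stress rats 1 to 4.

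The balance of core and regulatory particle was followed as the mean level of the 14 core genes minus that of the 19 regulatory particle genes in each rat. Since levels of different probes do not share a scale, only its change between rats can be read, and no test was made of it. It was 0.73 ± 0.016 (SD, n = 6) in control rats, 0.73 ± 0.021 in stress rats and 0.70 ± 0.035 in stress_exercise rats. Stress minus control was 0.0045, stress_exercise minus stress -0.030 and stress_exercise minus control -0.025, against a pooled SD of 0.025. Exercised rats 1 and 2, on slide 4, had 0.66 and 0.66, below all other rats, while exercised rats 3 to 6, on slide 5, had 0.71, 0.72, 0.73 and 0.73, inside the control range of 0.70 to 0.74. Stress rats 5 and 6, also on slide 4, had 0.70 and 0.76.

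The particles by themselves moved little. The core mean was 3.60 ± 0.029 in control, 3.64 ± 0.053 in stress and 3.63 ± 0.0087 in stress_exercise rats. The regulatory particle mean was 2.87 ± 0.028, 2.91 ± 0.052 and 2.93 ± 0.034. Stress rat 6 had the highest core mean of all rats (3.74) and the highest regulatory mean (2.98). Split by slide, the core mean of stress rats was 3.61 on slide 3 and 3.70 on slide 4, and the regulatory mean 2.88 and 2.97, so both particles were higher by about the same amount in stress rats of slide 4. Within the particles, stress_exercise minus control was 0.011 for the alpha ring, 0.056 for the beta ring, 0.071 for the ATPase ring and 0.053 for the other regulatory genes.

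Exercised rats 1 and 2 had a higher mean than exercised rats 3 to 6 in 12 of the 19 regulatory particle genes and 6 of the 14 core genes. From the former, 4 non-ATPase genes are given here, picked after their values were seen. Psmd7, a lid subunit, was at 2.13 and 2.27 in these rats and at 1.99, 1.90, 1.87 and 1.84 in exercised rats 3 to 6. Psmd13, another lid subunit, was at 1.73 and 1.74 against 1.60, 1.56, 1.56 and 1.55. Psmd3, also of the lid, was at 1.58 and 1.55 against 1.35, 1.38, 1.33 and 1.25. Psmd5 was at -0.33 and -0.32 against -0.57, -0.69, -0.50 and -0.63. In each of the 4 the exercised rats of slide 4 lay above all those of slide 5, within 1 treatment group. The same held for the ATPase genes Psmc3, Psmc4 and Psmc6 and for Psmd2, Psmd8 and Psmd9. It held as well for the core genes Psma4, Psma7, Psmb1 and Psmb7. In Psmd1 and Psmd12, and in the core genes Psma6, Psmb6 and Psmb10, the exercised rats of slide 4 lay below all those of slide 5. How many of all genes separate in this way was not counted.

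**Figure D4:**
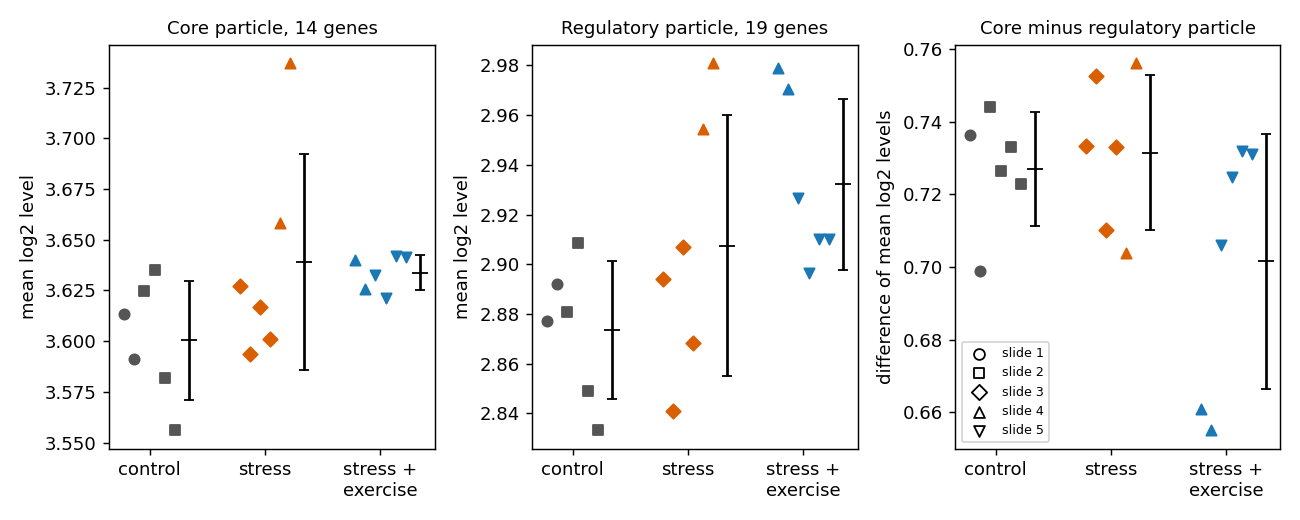
Mean log2 level of the 14 core genes (left), of the 19 regulatory particle genes (middle) and their difference (right) in each rat, by group; marker shapes give the slide, and black bars the mean and SD of 6 rats. Stress rats on slide 4 have the highest core means, 3.66 and 3.74, and exercised rats on slide 4 have the lowest differences, 0.66 and 0.66.

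Around the proteasome, 37 further genes of ubiquitin tagging, delivery, unfolding and subunit transcription were listed, and 29 were tested (Nfe2l1, Ddi1, Ddi2, Ecpas, Paaf1, Ube3c, Uchl5 and Zfand5 were not). Against control, 0 of 29 passed in stress rats; 3 had an unadjusted p under 0.05, and the nearest were Ubqln2, a shuttle for tagged proteins (0.091, adjusted p = 0.314), and Ngly1, the glycanase that processes Nfe2l1 (0.11, adjusted p = 0.35). Between stress_exercise and control rats 15 of 29 passed, 11 higher (37.9%, against 18.1% of all genes) and 4 lower (13.8%, against 9.84%). Against stress rats 1 passed in stress_exercise rats, higher (3.45%, against 1.6% of all genes): Bag6, a chaperone that hands misfolded proteins to the proteasome (0.19, SE 0.039, adjusted p = 0.0369). With the slide set in the fit 0 of 29 passed in each of the 3 comparisons.

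Bag6 lay between 2.15 and 2.24 in control rats, 2.20 and 2.40 in stress rats and 2.41 and 2.53 in stress_exercise rats (medians 2.21, 2.24 and 2.47). The exercised rats stood above every rat of both other groups. Stress_exercise minus control was 0.27 (SE 0.039, adjusted p = 0.000578), and 0.12 with the slide set (95% confidence interval 0.012 to 0.24, adjusted p = 0.492).

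Nfe2l2, a factor that binds the antioxidant response element printed above, lay between 0.53 and 0.66 in control rats, 0.67 and 0.86 in stress rats and 0.69 and 1.03 in stress_exercise rats (medians 0.63, 0.70 and 0.84). Control rats were below all others. The difference between stress_exercise and control rats was 0.23 (SE 0.056, adjusted p = 0.00593), and with the slide set 0.30 (95% confidence interval 0.087 to 0.51, adjusted p = 0.384). Between slides 4 and 3 of the stress rats it was -0.066. Of the 13 members in the promoter table that passed between stress_exercise and control rats, 3 held the motif (Psmb5, Psmb6 and Psmd9), against 7 of all 41. The CCAAT box was in 9 of the 13 (19 of 41) and the GC box in 10 (27 of 41). The ETS core was in 5 (18 of 41) and the cyclic AMP response element in 0 (1 of 41).

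Of the other genes of this list that passed between stress_exercise and control rats, Psmb8, an interferon-induced catalytic subunit left out of the members, had medians of -1.96 in control, -1.79 in stress and -1.63 in stress_exercise rats. The difference from control was 0.26 (SE 0.067, adjusted p = 0.00888), and 0.22 with the slide set (95% confidence interval -0.044 to 0.47). The slides of the stress rats differed by 0.045 in this gene. Psmb9, its partner, differed by 0.22 (adjusted p = 0.0353) and by 0.28 with the slide set. Their constitutive counterparts Psmb5 and Psmb6 turned sign with the slide set, as given above, and Psmb10, the third induced subunit, differed by -0.13 with no call. The 9 microglial markers had mean levels of 1.30, 1.26 and 1.29 in control, stress and stress_exercise rats. Their ranges were 1.23 to 1.37, 1.15 to 1.40 and 1.20 to 1.40. Between stress_exercise and control rats 3 of the 9 passed, 1 of them higher. Of all genes 28% passed there, and 18.1% were higher.

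Adrm1, a ubiquitin receptor of the regulatory particle without a Psm symbol, was lower in stress_exercise than in control rats (-0.22, SE 0.057, adjusted p = 0.0104), at 0.0026 with the slide set. Ngly1 was higher (0.19, SE 0.041, adjusted p = 0.00262), and Ubqln2 too (0.11, SE 0.031, adjusted p = 0.0136), with slide set values of 0.042 and 0.091.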

How the data were processed

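Each rat's array file holds the intensity of 62976 spots as the authors deposited it; the processed intensity was already corrected for background by Agilent Feature Extraction, per the file headers (version 12.1.0.3; the submitters' processing notes name 9.1). The labels give 2 differing amounts of input RNA. The deposited series matrix held the same values times 1 constant per array.

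Control spots and outlier spots (297 to 580 per array) were left out, spots of 1 probe were averaged, and log2 values were set to each array's 75th percentile. Probes were named through their accession and RefSeq genes of GRCr8 (21220 of 45598 probes); a gene with several tested probes is given by the brightest. limma 3.58.1 in R 4.3.3 fitted group over all 18 arrays and 31293 probes, with two-sided p-values adjusted by Benjamini-Hochberg. On simulated arrays for stress_exercise against control the fit recovered 64% of 100 changes of 0.5 and 91% of 100 of 1 log2, with 5 false calls. The members' differences in that comparison were smaller (-0.39 to 0.28), and recovery at their size was not simulated. The number of arrays limits the precision. The labels give 1 array per rat. The slide fit of the stress rats used the same probes.

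Given in full were Psmb5, Psmb6, Psmb7, Psmb10, Psme1 to Psme4 and Psmf1, up to 10 passing members per direction (or the 3 of smallest p) and up to 6 passing genes of the pathway list (or 2). The members and lists were chosen with earlier results of these data known.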

Additional observations from a re-analysis of the deposited data

Results flagged for a closer look

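In 7 of 138 sets of 6 rats, 1 rat lay far from the other 5 by Dixon's criterion; chance gives about 1 in 20 such sets. Psmb6l1 was 4.74 in control rat 4, against 4.61 to 4.65 in the other control rats. Psmc4 was 1.34 in control rat 3, against 1.38 to 1.39. Psmd7 was 1.89 in control rat 6, against 2.02 to 2.10. Psmd5 was -0.65 in stress rat 4, against -0.52 to -0.45. In stress_exercise rats, Psme4 was 1.37 in rat 4 (1.49 to 1.57 in the others), Psmb1 was 2.87 in rat 1 (2.70 to 2.76) and Psmc2 was 5.13 in rat 2 (5.24 to 5.29). No rat was flagged in more than 1 gene.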

How the results depend on the processing

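Of the 14 calls between stress_exercise and control rats, 0 were left with the slide set as a covariate and 0 with slide set and scan day, 2 with slide as a random block, 3 with no scaling and 8 with no filter on dim probes. Scan day 1 alone gave 7 calls, 5 of them among the 14, and scan day 2 alone gave 5, 4 of them among the 14. Among all 13051 genes scan day 1 alone gave 2252 calls and scan day 2 alone 2346. Slide as a random block gave 552, no scaling 1691 and no filter 2935. Of the 2 calls against stress rats, 0 were left with the slide set, slide set and scan day, slide as a random block, the array median, no filter, only slides 4 and 5, or only scan day 1; there was 1 with no scaling, 4 with scan day as a block, 11 without the stress rats of slide 4 and 11 on scan day 2 alone. Among all genes, no scaling gave 373 calls against stress rats and scan day as a block 1202. Leaving out the stress rats of slide 4 gave 3457, and scan day 2 alone 3189. Stress against control gave 0 calls except for 5 on scan day 1 alone, which sets stress rats 5 and 6 against control rats 3 to 6. Of all 13051 genes 1386 were called on that day. Leaving out 1 rat gave 0, 0 to 9 and 8 to 13 calls for stress against control, stress_exercise against stress and stress_exercise against control. The lowest of the last were 9, 9 and 8 without control rats 4, 5 and 6, with 3249, 3340 and 3165 among all genes. With the slide set, 1 and 15 calls of the pathway list became 0, and the signs of Psmb5 (-0.062), Psmb6 (-0.11), Psmb7 (-0.017), Psmc1 (-0.0055), Psmd4 (-0.021) and Adrm1 (0.0026), and of the uncalled Psme3 (-0.077) and Psme4 (-0.13), turned between stress_exercise and control rats. The cause of the other changes was not tested.

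With the replicate number as a block the counts were 0, 0 and 9 calls, and 0, 0 and 3096 among all genes. The numbers do not pair the rats: deviations of rats with the same number correlated between -0.25 and 0.19, and in 1, 1 and 0 of 6 pairs did a rat correlate best with its own number. The core minus regulatory particle difference moved by less than 1 SD under each alternative tried. Its sign for stress_exercise against control was negative in each (-0.033 to -0.016). That difference (-0.025) was itself no larger than the pooled SD (0.025), so a move of under 1 SD could still remove it. No alternative left out both exercised rats of slide 4, which had the lowest values (0.66 and 0.66). The exercised rats of slide 5 lay inside the control range. The constant sign therefore cannot show whether the difference holds without the exercised rats of slide 4. The normexp correction was run on median signals, since the files have no mean signals; that, the scan days alone, and slide set with scan day were chosen after seeing the data. The number of arrays, 2 to 6 per group and slide set, limits how small a difference can be seen.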
